A study of Mus musculus with 12 samples.

Results

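The genes described here are 34 genes of cholesterol metabolism, taken as a named list and found by symbol in the authors' deposited table, then joined by gene ID to the deposited counts of 56748 genes. They were grouped by role, with each gene in 1 role only. Of the 34, 19 are synthesis enzymes (7 of the mevalonate and isoprenoid steps, 3 from squalene to lanosterol and 9 from lanosterol to cholesterol), 5 control the SREBP transcription factors, 3 move sterol inside the cell, 2 esterify it, 2 are LXR receptors and 3 are LXR targets. RNA was sequenced from CD8+ T cells of 6 mice, 3 in each of 2 experiments. Whole spleens were stimulated for 24 hours with the peptide their transgenic T cell receptor recognises (250 nM SIINFEKL for OT-1, 1 uM gp100 for pmel-1), kept in IL-2 for 6 more days without or with 5 mM dichloroacetate (DCA), and CD8 cells were sorted on day 7. DCA inhibits the kinases that switch off pyruvate dehydrogenase. Each mouse gave an untreated and a DCA culture, so the 4 groups (untreated and DCA, in experiments 1 and 2) hold 3 libraries each and the 12 libraries form 6 pairs. The strain and genotype tags give experiment 1 as OT-1 mice, of genotype C57BL/6-Tg(TcraTcrb)1100Mjb/J, and experiment 2 as Pmel-1 mice, which carry Tg(TcraTcrb)8Rest/J on a B6.Cg-Thy1a/Cy background, whereas the sample titles say Pmel-1 for both. All 4 groups carry a transgenic T cell receptor, and the age of the mice is not given in the sources used here.

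Cholesterol is built from acetyl-CoA through mevalonate, isoprenoids, squalene and lanosterol. When sterol in the endoplasmic reticulum is low, SCAP carries the factor SREBP2 (gene Srebf2) to the Golgi, where it is cut, and its released part switches on the synthesis enzymes and lipoprotein uptake; INSIG proteins hold SCAP back when sterol is plentiful. Oxysterols and late sterol intermediates activate the nuclear receptors LXR alpha and LXR beta (Nr1h3 and Nr1h2), which switch on the exporters ABCA1 and ABCG1 and the ubiquitin ligase IDOL (gene Mylip), which degrades lipoprotein receptors. Dividing T cells are known to need SREBP activity for membrane growth, and LXR activity is known to restrain their expansion.

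Promoters are shown for 6 members to let the letters searched be read in enzymes of synthesis and in a gene of export: the entry enzyme Hmgcs1, the called enzymes Idi1, Cyp51, Hsd17b7 and Tm7sf2, and the exporter Abca1. Each line gives the 250 bases before the transcription start, 5′ to 3′ on the gene's own strand, from RefSeq (GRCm38.p6). Capitals mark the core of a sterol regulatory element, TCACNCCAC, and the NF-Y box CCAAT, searched on both strands (the box reads ATTGG on the other strand).
Hmgcs1, chr13:119690101-119690350, plus strand: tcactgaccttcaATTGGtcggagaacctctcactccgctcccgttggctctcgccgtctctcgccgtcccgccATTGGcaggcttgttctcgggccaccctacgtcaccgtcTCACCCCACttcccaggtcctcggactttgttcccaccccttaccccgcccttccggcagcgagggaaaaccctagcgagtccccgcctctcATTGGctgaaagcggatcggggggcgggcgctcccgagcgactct
Idi1, chr13:8885356-8885605, plus strand: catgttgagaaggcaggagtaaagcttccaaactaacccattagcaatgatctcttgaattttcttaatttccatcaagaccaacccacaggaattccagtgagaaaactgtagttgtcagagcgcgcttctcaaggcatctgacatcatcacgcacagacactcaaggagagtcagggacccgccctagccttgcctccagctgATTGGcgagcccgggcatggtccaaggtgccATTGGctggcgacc
Cyp51, chr5:4104698-4104947, minus strand: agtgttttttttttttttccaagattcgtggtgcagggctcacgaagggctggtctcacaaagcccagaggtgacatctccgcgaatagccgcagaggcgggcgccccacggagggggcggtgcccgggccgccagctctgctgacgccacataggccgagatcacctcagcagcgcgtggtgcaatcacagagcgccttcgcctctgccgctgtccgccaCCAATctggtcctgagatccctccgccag
Hsd17b7, chr1:169969206-169969455, minus strand: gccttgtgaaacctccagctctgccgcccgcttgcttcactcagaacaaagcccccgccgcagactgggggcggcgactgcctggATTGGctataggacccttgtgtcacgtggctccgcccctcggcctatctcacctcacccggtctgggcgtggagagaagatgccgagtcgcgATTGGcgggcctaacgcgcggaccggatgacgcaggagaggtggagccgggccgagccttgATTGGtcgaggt
Tm7sf2, chr19:6067851-6068100, minus strand: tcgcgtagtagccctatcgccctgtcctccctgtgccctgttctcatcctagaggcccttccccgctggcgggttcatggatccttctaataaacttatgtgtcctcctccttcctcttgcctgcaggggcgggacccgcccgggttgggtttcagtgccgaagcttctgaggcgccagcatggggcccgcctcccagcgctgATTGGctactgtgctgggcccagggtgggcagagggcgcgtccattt
Abca1, chr4:53159896-53160145, minus strand: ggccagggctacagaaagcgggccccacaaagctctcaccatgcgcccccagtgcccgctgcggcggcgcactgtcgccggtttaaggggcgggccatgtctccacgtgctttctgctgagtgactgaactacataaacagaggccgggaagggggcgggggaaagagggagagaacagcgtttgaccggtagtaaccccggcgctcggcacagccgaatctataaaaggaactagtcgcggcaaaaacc
In RefSeq windows of 300 bases (250 before to 50 after the start), 27 of the 34 members had an entry, in 36 windows. The exact letters TCACNCCAC were found in 1 of these members, Hmgcs1, and in 1.44% of all 27025 genes with a window. The NF-Y box was found in 22 of the 27 members and in 15 of the 16 synthesis enzymes with a window, against 41.1% of all genes. Of the LXR targets, Abca1 held 0 and Mylip 3 of these boxes. The GC box GGGCGG was found in 24 of the 27 members, against 38.2% of all genes. The exact direct repeat of AGGTCA with 4 bases between, a form of the element bound by LXR with RXR, was found in 0 members and in 0.0148% of all genes. So rare an exact string cannot show whether a member holds the element in other letters. No window was found for Fdps, Sqle, Fdft1, Stard4, Npc1, Soat2 and Abcg1. A match is a description of the letters in the window and not a binding site. Only exact letters were searched, so a window without a match may still hold a variant of the element.

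Total counts per library were between 28039699 and 41051066, and all 34 members were among the 15688 genes that passed the filter on low counts. Experiment 1 libraries detected between 18382 and 19551 genes and experiment 2 libraries between 23635 and 26571. The scaling factors for library composition were 0.818 to 0.845 in the untreated and 0.910 to 0.934 in the DCA libraries of experiment 1. In experiment 2 they were 1.116 to 1.126 untreated and 1.150 to 1.174 with DCA, so they were higher with DCA in both experiments with no overlap. Levels are given as CPM, a gene's share of the library total after this scaling. The 6 CD8 T cell markers summed to 4806 to 5562 CPM untreated and 4995 to 5387 CPM with DCA in experiment 1. In experiment 2 their sum was lower with DCA and did not overlap, at 4459 to 4967 and 3571 to 3723 CPM. The 3 CD4 T cell markers (Cd4, Zbtb7b and Foxp3) summed to 5.27 to 7.45 CPM untreated and 5.92 to 7.49 CPM with DCA in experiment 1. In experiment 2 they summed to 5.37 to 7.66 and 5.19 to 8.16 CPM. In each group 1 of the 3 passed 1 CPM. Cd4 itself was at most 0.70 CPM, Zbtb7b passed the filter on low counts and Foxp3 did not. Of 11 macrophage and monocyte markers, 2 passed 1 CPM over a group's libraries in both groups of experiment 1. In experiment 2, 1 passed it untreated and 2 with DCA. Adgre1, Csf1r, Lyz2, C1qa, C1qb and C1qc lay between 0 and 0.38 CPM. Of the others, Cd68, Cd14 and Mrc1 passed the filter on low counts and Itgam and Fcgr1 did not. The 6 B cell markers summed to 290 to 435 and 395 to 456 CPM (untreated and DCA, experiment 1) and to 353 to 450.2 and 419 to 499 CPM (experiment 2). Ighm (267 to 467 CPM) and Cd79b (15.04 to 41.9 CPM, higher with DCA in both experiments with no overlap) carried that sum, and Cd79a, Ms4a1 and Pax5 were at most 0.311 CPM. The part of these marker shifts in the DCA results below was not tested.

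In untreated cells the members spanned a wide range of levels, from the enzyme Lbr at the top to the exporter Abca1 at the bottom. Per kilobase of the gene length in the authors' deposited table, the highest mean was that of Lbr, a sterol reductase of the nuclear envelope, at 109 CPM per kilobase. Next came Hmgcs1 at 93.9, the sterol demethylase Msmo1 at 77.8 and Acat2, which joins 2 acetyl-CoA molecules, at 74.8 CPM per kilobase. Over the 6 untreated libraries Lbr ranged from 64.7 to 155 CPM per kilobase and Hmgcs1 from 78.6 to 111, so the order of these neighbours is within their spread. The order also differed by experiment. In experiment 1 Lbr (68.5) stood below Msmo1 (90.2), Hmgcs1 (85.3) and Pmvk (68.8 CPM per kilobase), and it was first in experiment 2 alone (149 CPM per kilobase). Srebf2 stood at 11.2 and Srebf1 at 7.33 CPM per kilobase. Nr1h2 stood at 13.5 and Nr1h3 at 0.184 CPM per kilobase, and their ranges (6.46 to 20.9 and 0.107 to 0.310) did not overlap. The LXR targets were at 2.31 CPM per kilobase for Abcg1, 0.930 for Mylip and 0.0315 for Abca1. Within the synthesis enzymes, Fdps at 3.95, Dhcr7 at 3.68 and Tm7sf2 at 2.52 CPM per kilobase were the lowest over both experiments, and in experiment 1 Lss (2.54) lay below Fdps (3.23 CPM per kilobase). Several genes of other roles lay above these enzymes, such as Npc2 at 40.6 and Stard4 at 22.3 CPM per kilobase, and Npc1 at 1.40 lay below Abcg1. Fdps has processed pseudogenes in the mouse and Acat2 has the near-identical neighbour Acat3, and how the authors' counting split reads between copies is not given in the sources used here.

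**Figure D1:**
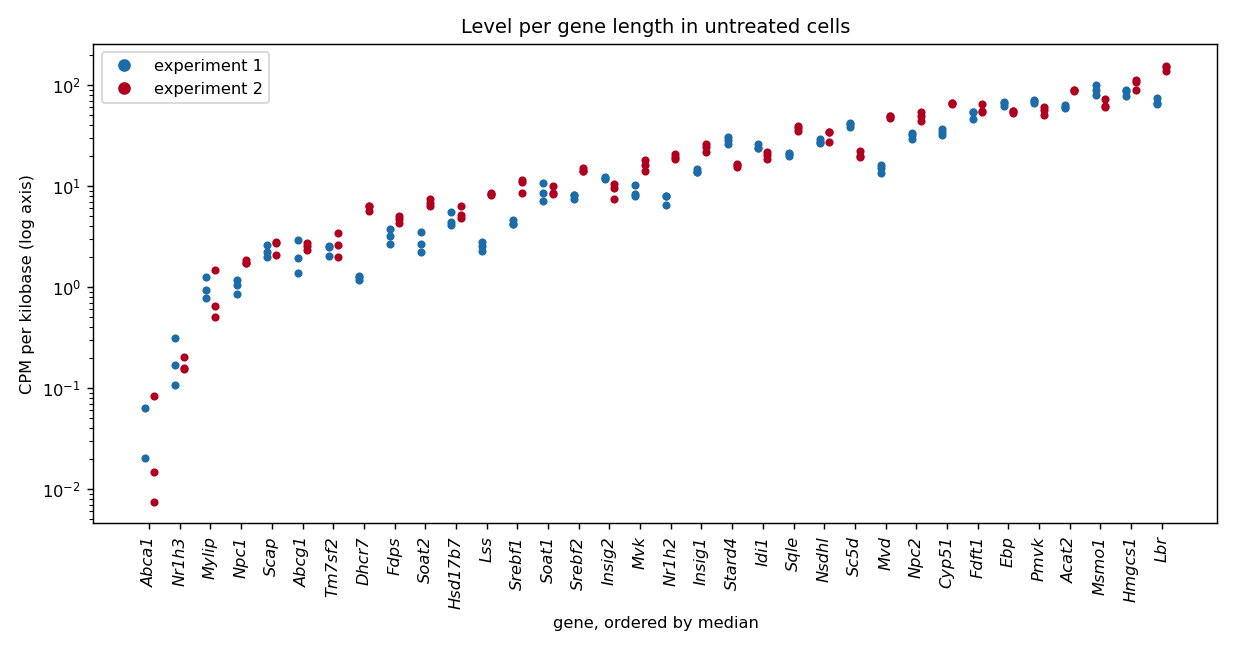
Level of each member per gene length in untreated cells (CPM per kilobase, log axis), with a point for each of the 6 untreated libraries. By the mean of the 6, Lbr, Hmgcs1, Msmo1 and Acat2 stand highest and Nr1h3 and Abca1 lowest; the library of Abca1 at 0 (experiment 1, mouse 2) cannot be drawn on the log axis.

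The first comparison asked what DCA did to these genes over both experiments. With DCA, 6 of the 19 synthesis enzymes fell (Fdps, Sqle, Hsd17b7, Idi1, Cyp51 and Lbr) and 1 rose (Tm7sf2), the exporter Abcg1 rose to 2.08 times its untreated level, and the receptor gene Nr1h2 fell. In all, 2 members rose, 7 fell and 25 were not called (edgeR's quasi-likelihood test with Benjamini-Hochberg adjustment over all 15688 genes, threshold 0.05). Over all genes tested, 16.8% were called, 7.01% higher and 9.8% lower. The 19 synthesis enzymes had a median log2 fold change of -0.18, with 17 below 0, and their values ranged from -0.55 to 0.54. Over all 15688 genes the median was -0.02, with 8106 below 0. After cyclic loess normalization in place of these scaling factors, 14 of the 19 were below 0, their median was -0.06, and 4 members were called higher and 5 lower. The count over all genes then went from 1100 higher and 1538 lower to 1231 higher and 1036 lower. The median over all genes after loess is not given here, so the part of this shift shared by all genes is not read. With a term for each mouse, 3 members were called higher and 6 lower: Abca1 joined, and Lbr was lost. In 6 of 6 mice 8 members were lower with DCA and 4 were higher, against 10.8% and 8.31% of all genes. The lower 8 were Mvd, Idi1, Fdps, Sqle, Cyp51, Hsd17b7, Ebp and Nr1h2, and the higher 4 were Tm7sf2, Npc1, Abca1 and Abcg1. In experiment 1 the DCA and untreated groups did not overlap at 7 members lower and 3 higher, against 18% and 11.2% of all genes. In experiment 2 they did not overlap at 10 lower and 4 higher, against 14.6% and 15.6%. Where groups of a member are said below not to overlap, that alone is common among all genes. In the authors' deposited table, 5 members were lower and 2 higher at a false discovery rate under 0.05. The table holds Idi1, Fdps, Sqle, Hsd17b7 and Nr1h2 as lower and Tm7sf2 and Abcg1 as higher. Over all its genes, 1588 were under this rate in either direction. The percentages given above belong to the fit made here and not to that table, so nothing is read from its counts of members.

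**Figure D2:**
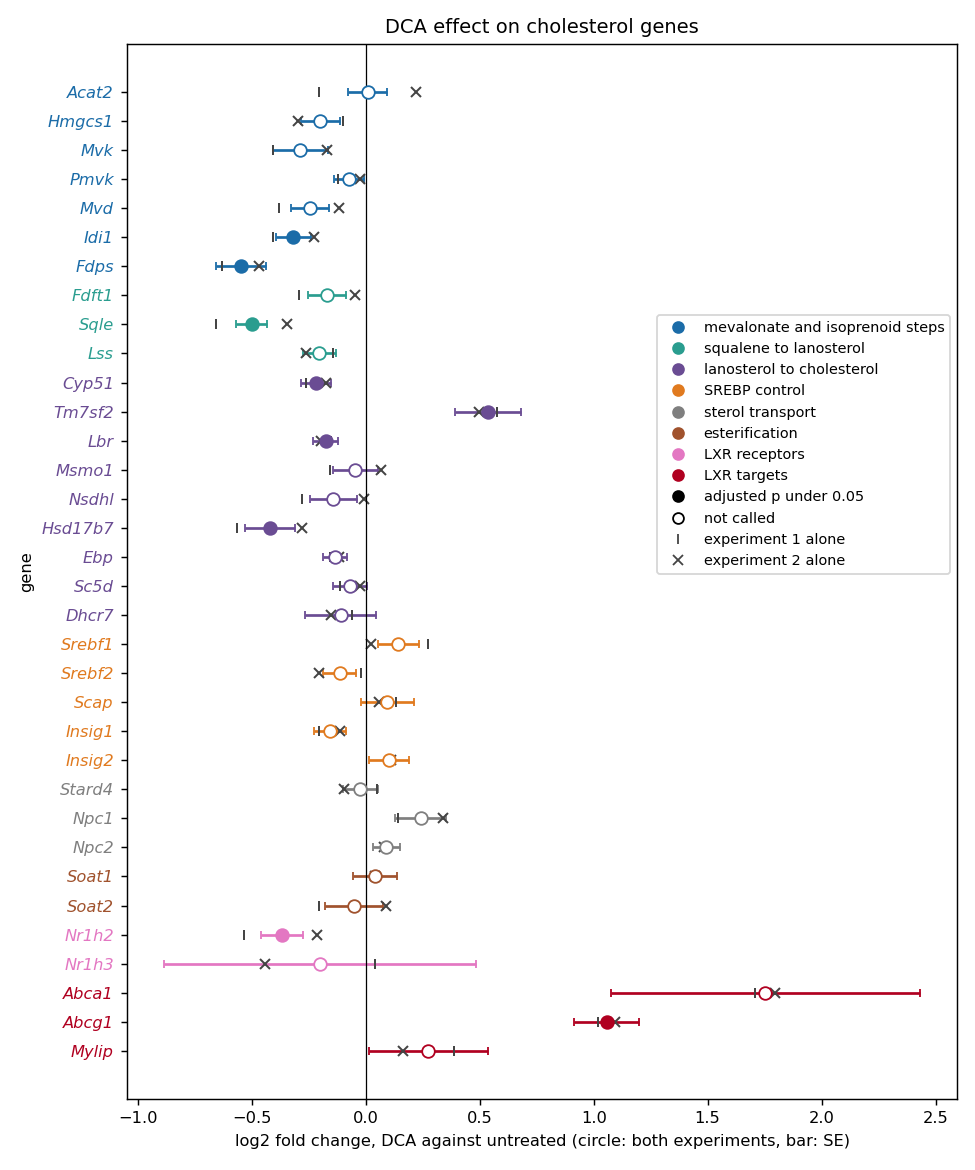
Log2 fold change of each member with DCA (circle: both experiments, bar: SE; other marks: each experiment alone), with genes in order of their role. The synthesis enzymes lie mostly left of 0, down to -0.55 for Fdps, and the 3 LXR targets lie right of 0.

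Of the 7 genes of the mevalonate and isoprenoid steps, 2 fell with DCA and 0 rose, with a median log2 fold change of -0.25. Idi1, the isomerase that makes dimethylallyl pyrophosphate, and Fdps, which joins isoprene units into farnesyl pyrophosphate, were the called genes. In experiment 1, Fdps stood at 11.3, 15.9 and 13.6 CPM in the untreated libraries of mice 1, 2 and 3 and at 8.63, 8.96 and 8.80 CPM with DCA. The untreated libraries of experiment 2 held 21.4, 17.9 and 19.6 CPM and its DCA libraries 15.6, 13.1 and 13.8 CPM. The DCA libraries lay below the untreated ones in both experiments with no overlap, and Fdps came to 0.684 times its untreated level (log2 fold change -0.55, SE 0.11, adjusted p 0.00337). A predicted gene on the same strand shares 26.7% of the exon bases of Fdps and held 0 to 1 counts. In experiment 1, Idi1 stood at 83.7, 83.04 and 90.5 CPM in the untreated libraries of mice 1, 2 and 3 and at 56.4, 71.2 and 66.1 CPM with DCA. For Idi1 in experiment 2 the values were 65.4, 70.9 and 75.4 CPM untreated and 55.7, 60.4 and 64.7 CPM with DCA. The groups did not overlap in either experiment, and the fall of Idi1 came to 0.802 times the untreated level (log2 fold change -0.32, SE 0.08, adjusted p 0.0101). Hmgcs1, the synthase that commits acetyl-CoA to the pathway, was not called (log2 fold change -0.20, SE 0.08, adjusted p 0.122). It is the member with an exact match to the letters TCACNCCAC shown above. In experiment 1, Hmgcs1 stood at 361, 409 and 405 CPM in the untreated libraries of mice 1, 2 and 3 and at 348, 439 and 308 CPM with DCA. Levels in experiment 2 were 493, 408 and 512 CPM untreated and 384, 393 and 374 CPM with DCA. Its groups overlapped in experiment 1, where mouse 2 alone was higher with DCA, and did not overlap in experiment 2. Without the experiment 1 DCA library of mouse 2, Hmgcs1 was called lower (adjusted p 0.0142). The kinase Mvk had a log2 fold change of -0.29 (adjusted p 0.12), which passed the threshold without the experiment 1 DCA library of mouse 3 (adjusted p 0.0446). The decarboxylase Mvd, at -0.25 (adjusted p 0.0553), passed it with RLE size factors (adjusted p 0.0401) and in DESeq2 (adjusted p 0.0128). The kinase Pmvk and Acat2 had log2 fold changes of -0.07 and 0.01.

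From squalene to lanosterol, 1 of 3 genes fell with DCA and the median log2 fold change was -0.20. Sqle, the epoxidase that adds the first oxygen and is a rate-limiting step after mevalonate, was the called gene. In experiment 1, Sqle stood at 111, 118 and 115 CPM in the untreated libraries of mice 1, 2 and 3 and at 67.1, 75.7 and 75.4 CPM with DCA. In experiment 2 it was at 219.7, 211 and 195 CPM untreated and at 159.8, 160.4 and 172 CPM with DCA. All 6 DCA libraries lay below all untreated libraries of their experiment, and Sqle came to 0.707 times its untreated level (log2 fold change -0.50, SE 0.07, adjusted p 0.000361). It was called in each of the 12 fits that left out 1 library, with adjusted p between 0.000138 and 0.00136. Fdft1, which makes squalene, had a log2 fold change of -0.17 (adjusted p 0.187). The protease gene Ctsb on the opposite strand shares 18.3% of the exon bases of Fdft1 and held 5712 to 20032 counts, and whether the counting used strand is not given in the sources used here. Lss, the cyclase that closes the sterol rings, had -0.20 (adjusted p 0.0645) and passed the threshold without the experiment 1 untreated or DCA library of mouse 3 (adjusted p 0.0335 and 0.045), in limma-voom (adjusted p 0.0268) and in DESeq2 (adjusted p 0.0158).

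Among the 9 genes from lanosterol to cholesterol, Hsd17b7, Cyp51 and Lbr fell, Tm7sf2 rose and 5 were not called, with a median log2 fold change of -0.14. Hsd17b7 is a sterol ketone reductase of the demethylation steps. In experiment 1, Hsd17b7 stood at 21.02, 28.1 and 22.2 CPM in the untreated libraries of mice 1, 2 and 3 and at 16.99, 15.3 and 15.9 CPM with DCA. The untreated libraries of experiment 2 held 32.4, 24.7 and 26.7 CPM and its DCA libraries 22.7, 20.7 and 25.7 CPM. Its groups did not overlap in experiment 1 and overlapped in experiment 2, and it came to 0.747 times the untreated level (log2 fold change -0.42, SE 0.11, adjusted p 0.015). Cyp51 takes a methyl group off lanosterol. In experiment 1, Cyp51 stood at 152, 162 and 141 CPM in the untreated libraries of mice 1, 2 and 3 and at 109, 144 and 127 CPM with DCA. For Cyp51 in experiment 2 the values were 285, 297 and 294 CPM untreated and 238, 268 and 270.3 CPM with DCA. The DCA level was lower in every mouse, although the groups of experiment 1 overlapped, and Cyp51 came to 0.859 times the untreated level (log2 fold change -0.22, SE 0.07, adjusted p 0.0371). That call held in 4 of the 12 fits that left out 1 library (those without the untreated mouse 3 or DCA mouse 2 of experiment 1, or the untreated mouse 1 or DCA mouse 3 of experiment 2), with adjusted p of 0.0222 to 0.0903 over the 12. It was lost after cyclic loess normalization (log2 fold change -0.10, adjusted p 0.295) and with the filter at 5 CPM (adjusted p 0.0582).

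Lbr and Tm7sf2 both encode reductases of the same double bond of the sterol rings, and they moved in opposite directions. In experiment 1, Lbr stood at 314, 308 and 357 CPM in the untreated libraries of mice 1, 2 and 3 and at 279.9, 319 and 279 CPM with DCA. Levels in experiment 2 were 724, 739 and 662 CPM untreated and 608, 648 and 599.7 CPM with DCA. Mouse 2 of experiment 1 was higher with DCA and the other 5 mice were lower, and Lbr came to 0.886 times its untreated level (log2 fold change -0.18, SE 0.06, adjusted p 0.0402). This call held in 3 of the 12 fits that left out 1 library (those without the untreated mouse 1 or 2 or the DCA mouse 2 of experiment 1), with adjusted p of 0.0228 to 0.132 over the 12. It was lost with a term per mouse (adjusted p 0.079) and after cyclic loess normalization (adjusted p 0.798), and also with no filter on low counts (adjusted p 0.104) and with the filter at 5 CPM (adjusted p 0.113). In experiment 1, Tm7sf2 stood at 8.97, 11.4 and 10.98 CPM in the untreated libraries of mice 1, 2 and 3 and at 12.4, 14.9 and 19.4 CPM with DCA. In experiment 2 it was at 8.82, 11.5 and 15.1 CPM untreated and at 18.5, 14.99 and 16.6 CPM with DCA. Tm7sf2 was higher with DCA in 6 of 6 mice, overlapping slightly in experiment 2, and came to 1.45 times the untreated level (log2 fold change 0.54, SE 0.15, adjusted p 0.0199). It was called in all 12 fits that left out 1 library, with adjusted p of 0.00671 to 0.0498. Vps51 on the same strand shares 12.1% of the exon bases of Tm7sf2, held 178 to 577 counts and had a log2 fold change of -0.21 (SE 0.13, adjusted p 0.290). Per kilobase, Lbr stood far above Tm7sf2 in both arms (109 and 2.52 CPM per kilobase untreated, 95.7 and 3.66 with DCA). The other 5 enzymes were Msmo1, Nsdhl, Ebp, Sc5d and Dhcr7, with log2 fold changes between -0.14 and -0.05. Of these the isomerase Ebp was lower in 6 of 6 mice (log2 fold change -0.14, SE 0.05, adjusted p 0.0944) and was called by DESeq2 (adjusted p 0.0201).

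**Figure D3:**
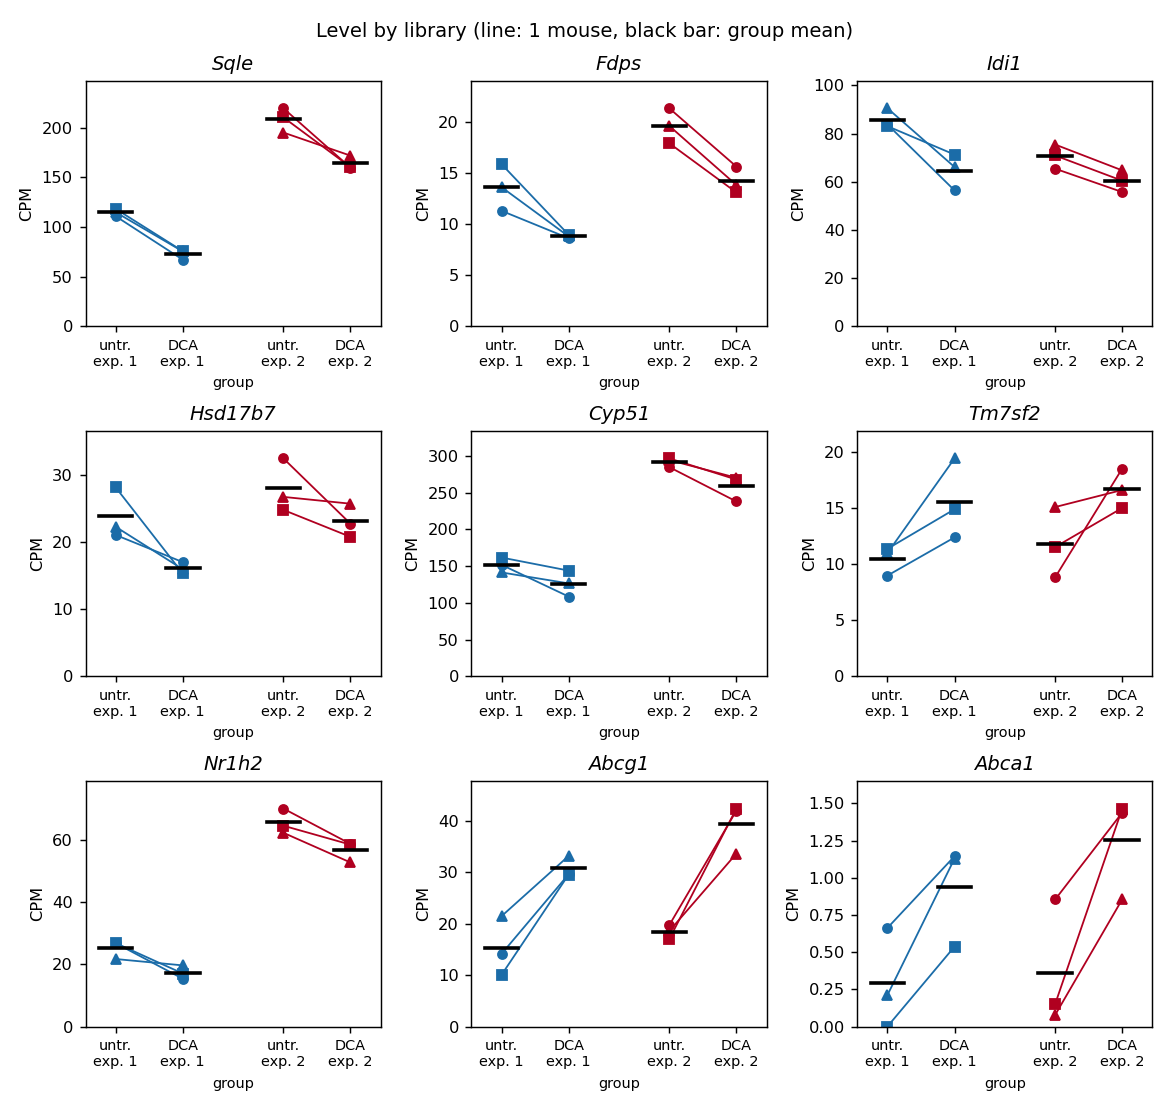
CPM by library for members named in the text, with a line for each mouse from untreated to DCA and a black bar for each group mean. Lines of Sqle, Fdps and Nr1h2 go down and lines of Abcg1 go up in all 6 mice.

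None of the 5 SREBP control genes was called, and their median log2 fold change was 0.09. For Srebf2, which encodes SREBP2, the log2 fold change was -0.11 (SE 0.07, adjusted p 0.316). In experiment 1, Srebf2 stood at 58.5, 58.2 and 53.7 CPM in the untreated libraries of mice 1, 2 and 3 and at 58.8, 48.8 and 60.5 CPM with DCA. The untreated libraries of experiment 2 held 109, 101 and 100.4 CPM and its DCA libraries 94.9, 90.05 and 83.99 CPM. The groups overlapped in experiment 1, and in experiment 2 each DCA library was below each untreated one. Srebf1, which encodes the SREBP1 forms that favour fatty acid genes, had 0.14 (SE 0.09, adjusted p 0.323). In experiment 1, Srebf1 stood at 23.7, 25.7 and 23.8 CPM in the untreated libraries of mice 1, 2 and 3 and at 31.4, 25.9 and 31.00 CPM with DCA. For Srebf1 in experiment 2 the values were 65.1, 61.2 and 48.4 CPM untreated and 61.1, 60.8 and 55.4 CPM with DCA. Here the DCA libraries were the higher ones in experiment 1, narrowly and with no overlap, and the experiment 2 groups overlapped. Insig1, itself a target of SREBP2, had -0.16 (SE 0.07, adjusted p 0.15). In experiment 1, Insig1 stood at 46.1, 42.99 and 43.1 CPM in the untreated libraries of mice 1, 2 and 3 and at 35.2, 40.4 and 39.1 CPM with DCA. Levels in experiment 2 were 66.6, 80.1 and 75.3 CPM untreated and 69.9, 72.2 and 63.5 CPM with DCA. The DCA libraries of Insig1 were all lower in experiment 1 and overlapped the untreated ones in experiment 2. In experiment 1, Insig2 stood at 42.9, 40.5 and 42.1 CPM in the untreated libraries of mice 1, 2 and 3 and at 40.5, 48.5 and 44.5 CPM with DCA. In experiment 2 it was at 33.6, 25.8 and 36.7 CPM untreated and at 35.5, 34.7 and 33.7 CPM with DCA. Insig2, the second anchor of SCAP, had overlapping groups in both experiments (log2 fold change 0.10, SE 0.09, adjusted p 0.493). In experiment 1, Scap stood at 16.7, 19.3 and 14.8 CPM in the untreated libraries of mice 1, 2 and 3 and at 19.1, 17.2 and 19.5 CPM with DCA. The untreated libraries of experiment 2 held 20.5, 20.7 and 15.5 CPM and its DCA libraries 21.7, 21.6 and 15.6 CPM. The groups of Scap overlapped too (log2 fold change 0.09, SE 0.12, adjusted p 0.648).

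Of the sterol transport and esterification genes, 0 of 5 were called. The lysosomal exporter Npc1 was higher with DCA in 6 of 6 mice (log2 fold change 0.24, SE 0.11, adjusted p 0.162), and its partner Npc2 had a log2 fold change of 0.09 (adjusted p 0.355), which passed the threshold after cyclic loess normalization (0.22, adjusted p 0.0223). Stard4, which carries sterol between membranes, and Soat1 and Soat2, which make cholesteryl esters, had log2 fold changes of -0.02, 0.04 and -0.05, each within its SE of 0.

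All 3 members grouped as LXR targets had a log2 fold change above 0 with DCA, from 0.27 to 1.75, and 1 of them, Abcg1, was called. They are not every gene that LXR can drive, and some others are given below. In experiment 1, Abcg1 stood at 14.2, 10.1 and 21.5 CPM in the untreated libraries of mice 1, 2 and 3 and at 29.7, 29.6 and 33.2 CPM with DCA. For Abcg1 in experiment 2 the values were 19.7, 17.02 and 18.6 CPM untreated and 42.05, 42.5 and 33.7 CPM with DCA. Every DCA library of Abcg1, which passes cholesterol to lipoproteins, was above every untreated library of either experiment, and it came to 2.08 times the untreated level (log2 fold change 1.06, SE 0.14, adjusted p 0.000346). Abcg1 was called in all 12 fits that left out 1 library (adjusted p 6.42e-05 to 0.00134) and in each of the 7 other settings run. Abca1, which loads cholesterol onto apolipoprotein A1, was near the limit of detection. Its counts were 17, 0 and 6 untreated and 30, 15 and 29 with DCA in mice 1, 2 and 3 of experiment 1. In experiment 2 they were 28, 5 and 3 untreated and 49, 53 and 34 with DCA. Abca1 was higher with DCA in 6 of 6 mice, its groups overlapped in experiment 1, and it was not called (log2 fold change 1.75, SE 0.68, adjusted p 0.0925). In the untreated library at 0, 3 counts would be 0.0894 CPM. It passed the threshold without the untreated library of mouse 1 of experiment 1 (adjusted p 0.0469) or of experiment 2 (adjusted p 0.0382), and with a term per mouse (log2 fold change 2.32, adjusted p 0.0334). It also passed in limma-voom, DESeq2, after cyclic loess normalization and with no filter on low counts (adjusted p 0.0133, 0.0405, 0.0396 and 0.0132). In experiment 1, Mylip stood at 3.04, 4.05 and 2.51 CPM in the untreated libraries of mice 1, 2 and 3 and at 3.32, 4.87 and 4.36 CPM with DCA. Levels in experiment 2 were 2.08, 4.73 and 1.63 CPM untreated and 3.17, 3.98 and 2.29 CPM with DCA. Mylip was higher with DCA in 5 of 6 mice, its groups overlapped in both experiments, and it was not called (log2 fold change 0.27, SE 0.26, adjusted p 0.535). The summed level of the 11 macrophage and monocyte markers, cells that express ABC exporters, was 9.40 to 13.3 CPM in the untreated and 12.1 to 33.4 CPM in the DCA libraries of experiment 1, and 7.21 to 15.6 and 14.4 to 17.3 CPM in those of experiment 2. Cd68 (6.69 to 29.9 CPM) carried most of that sum, C1qa was at 0 in every library, and Adgre1 and Csf1r were at 0 in every library of experiment 1; the RNA came from cells sorted for CD8, and the part of any remaining Cd68-positive cells in the LXR target values was not tested. In bulk RNA, fewer cells of a type and less RNA per cell cannot be told apart.

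Of the LXR receptor genes, Nr1h2 fell with DCA and Nr1h3 was not called. The level of Nr1h2 came to 0.775 times its untreated level (log2 fold change -0.37, SE 0.09, adjusted p 0.0141). In experiment 1, Nr1h2 stood at 26.8, 26.8 and 21.7 CPM in the untreated libraries of mice 1, 2 and 3 and at 15.3, 17.02 and 19.6 CPM with DCA. In experiment 2 it was at 70.00, 64.5 and 62.2 CPM untreated and at 58.6, 58.4 and 52.7 CPM with DCA. The groups did not overlap in either experiment, and the call held in all 12 fits that left out 1 library (adjusted p 0.00959 to 0.0366). Nr1h3 had too few counts to follow: 20, 9 and 12 untreated and 0, 32 and 9 with DCA in experiment 1. Its counts in experiment 2 were 13, 17 and 15 and 4, 22 and 9. The groups of Nr1h3 overlapped throughout and a difference was not detectable at this depth (log2 fold change -0.20, SE 0.68, adjusted p 0.886).

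Synthesis and export were then set side by side as the mean log2 CPM of the 19 synthesis enzymes and of the 3 LXR targets in each library. These means are given with no test, since the members were chosen with earlier results known. The synthesis mean was 6.16, 6.28 and 6.25 in the untreated and 5.82, 6.14 and 5.98 in the DCA libraries of mice 1, 2 and 3 of experiment 1. In experiment 2 it was 6.69, 6.67 and 6.79 untreated and 6.59, 6.60 and 6.64 with DCA. The LXR target mean was 1.67, 0.46 and 1.31 untreated and 2.31, 2.15 and 2.49 with DCA in experiment 1, and 1.76, 1.38 and 0.72 and 2.56, 2.68 and 2.06 in experiment 2. Within each mouse the synthesis mean was lower and the LXR target mean was higher with DCA, in 6 of 6 mice for each. The change was -0.18 ± 0.10 for synthesis and 1.16 ± 0.38 for the LXR targets (SD, n = 6 mice), and the change of synthesis minus LXR targets was -1.34 ± 0.35. In experiment 1 alone that difference was -1.42 ± 0.43 and in experiment 2 it was -1.26 ± 0.31 (SD, n = 3 mice each). Most of it came from the LXR targets, whose mean rests on 3 genes, 2 of them (Abca1 and Mylip) at low levels. With the median member in place of the mean it was -0.67, and with Abca1 and Abcg1 alone as the LXR targets it was -1.75.

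**Figure D4:**
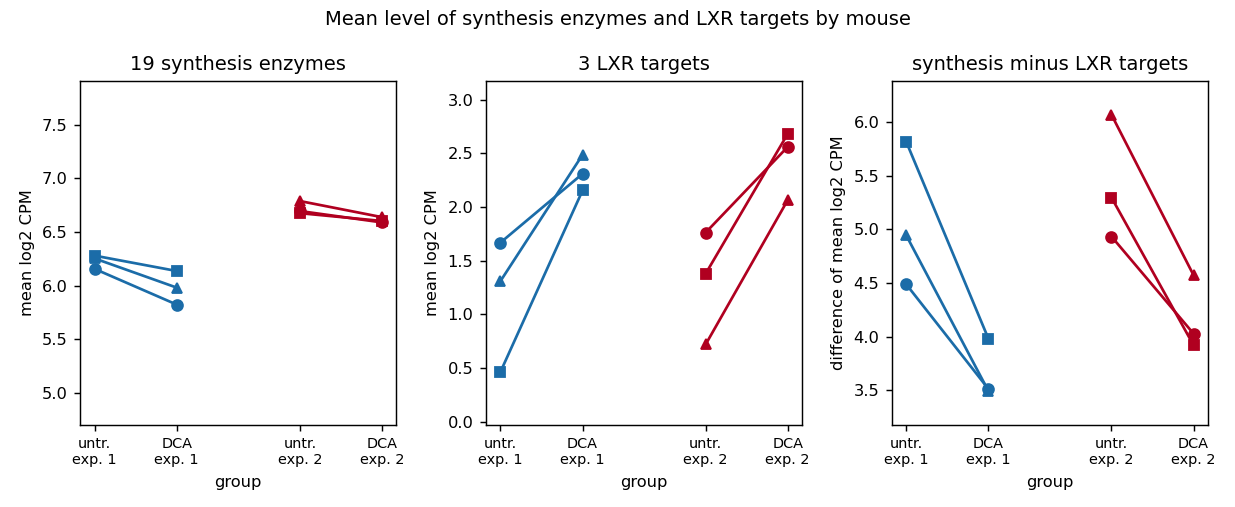
Mean log2 CPM of the 19 synthesis enzymes, of the 3 LXR targets and their difference, with a line for each mouse. Lines go down for synthesis and up for the LXR targets in all 6 mice, and the panels share the same span of the y axis.

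Within each experiment fewer members were called, and no difference between the experiments was called. In experiment 1, Abcg1 rose and Mvd, Idi1, Fdps, Sqle, Hsd17b7 and Nr1h2 fell (1 higher and 6 lower, against 5.67% higher and 11% lower over all genes, 16.7% in all). In experiment 2, Abcg1 rose and Sqle fell (2 called, against 2.37% higher and 2.2% lower over all genes, 4.57% in all). The Sqle log2 fold change was -0.66 (SE 0.08, adjusted p 0.000217) in experiment 1 and -0.35 (SE 0.07, adjusted p 0.0187) in experiment 2. The effect in experiment 2 minus that in experiment 1 was 0.31 (SE 0.11, adjusted p 0.191). Abcg1 had 1.02 (SE 0.21, adjusted p 0.00437) and 1.09 (SE 0.20, adjusted p 0.0092), a difference of 0.08 (SE 0.29, adjusted p 0.947). For the difference, 0 members were called against 0.28% higher and 0.051% lower over all genes (0.331% in all) in edgeR's quasi-likelihood test, 2 had an unadjusted p under 0.05 (Acat2 and Sqle), and limma-voom and DESeq2 called 0 too. Acat2 had -0.21 in experiment 1 and 0.22 in experiment 2 (difference 0.42, SE 0.13, adjusted p 0.161). In experiment 1 it stood at 155, 149 and 161 CPM untreated and 114, 157 and 133 CPM with DCA. In experiment 2 it stood at 227, 226 and 225 CPM untreated and 249, 266 and 273 CPM with DCA. Mouse 2 of experiment 1 was the mouse of that experiment that was higher with DCA, and without its DCA library the Acat2 difference was called (0.55, SE 0.11, adjusted p 0.0398). Without that same library 12 members were called in experiment 1. Without the untreated mouse 2 of experiment 2, 0 members were called there, with Sqle at an adjusted p of 0.0553 and Abcg1 at 0.0605. Sqle was also lost in experiment 2 without the DCA library of mouse 1 or 2 (adjusted p 0.0575 and 0.0542). In experiment 1 the Mvd call held only without untreated mouse 2, DCA mouse 1 or DCA mouse 2 of experiment 1 (adjusted p 0.026, 0.0373 and 0.0264) and was lost in the other 9 fits that left out 1 library (adjusted p up to 0.0939). Idi1 was lost without DCA mouse 1 (adjusted p 0.0586), and Fdps and Hsd17b7 were lost without untreated mouse 2 (adjusted p 0.0571 and 0.0788). After cyclic loess normalization, experiment 1 had 3 members higher and 4 lower. For these fits with a library left out or with loess, calls over all genes are not given here. Nothing is read from the changed counts of members.

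Other genes of the same pathways, from lists written beside the members, were read from the same fit. Their counts stand beside 7.01% of all genes called higher and 9.8% called lower, 16.8% in all, and nothing is read from a share near these. Of 12 fatty acid genes that SREBP also drives, 3 rose, 3 fell and 6 were not called, with a median log2 fold change of -0.09. The desaturase Scd2 rose (310.4 ± 29.01 CPM untreated and 415 ± 17.7 CPM with DCA (mean ± SD, n = 6), log2 fold change 0.42, SE 0.06, adjusted p 0.00043), as did Me1, which supplies NADPH, and the desaturase Scd1. The elongase Elovl6 fell (48.3 ± 6.45 CPM untreated and 38.9 ± 6.87 CPM with DCA (mean ± SD, n = 6), log2 fold change -0.32, SE 0.07, adjusted p 0.0062), as did Mid1ip1, which activates acetyl-CoA carboxylase (log2 fold change -0.42, adjusted p 0.00631), and the acyltransferase Gpam. Of 12 genes of SREBP cleavage and sterol-regulated degradation, 2 fell, among them Aup1 (log2 fold change -0.25, SE 0.08, adjusted p 0.0369). Of 13 genes that use isoprenoids for prenylation, dolichol or ubiquinone, 0 were called and the median was -0.10. Of 16 sterol uptake and transfer genes, 2 rose and 1 fell. Osbpl8, which exchanges lipids between membranes, was among those that rose (log2 fold change 0.45, adjusted p 0.0058). Tmem97, a sterol-responsive partner of Npc1, fell (250.0 ± 38.2 CPM untreated and 181 ± 15.1 CPM with DCA (mean ± SD, n = 6), log2 fold change -0.45, SE 0.08, adjusted p 0.00152). Of 12 listed LXR partners, other LXR targets and oxysterol enzymes, 8 could be tested, and 1 of them rose, Smpdl3a, a phosphodiesterase known as an LXR target (20.6 ± 9.14 CPM untreated and 42.8 ± 12.03 CPM with DCA (mean ± SD, n = 6), log2 fold change 1.11, SE 0.17, adjusted p 0.000673). The listed LXR targets Lpcat3 and Arl4c were not called. Lpcat3 stood at 87.3 ± 31.5 CPM untreated and 91.6 ± 36.8 CPM with DCA, higher in 5 of 6 mice. Arl4c stood at 41.7 ± 5.23 and 46.1 ± 10.97 CPM, higher in 4 of 6 mice. Each called gene named here moved the same way in 6 of 6 mice.

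More members were called between the experiments, 23 in each arm, than between untreated and DCA cells. In untreated cells, experiment 2 was higher than experiment 1 at 16 members and lower at 7, where 26.7% of all genes were called higher and 25.2% lower (51.8% in all). In DCA cells 19 members were higher and 4 lower, where 52.3% of all genes were called. Strain, technical batch and experiment coincide, so they cannot be told apart in these comparisons. The median log2 fold change in untreated cells was 0.31 over the members and 0.11 over all genes, and cyclic loess normalization, which moved the latter to -0.01, gave 18 members higher and 3 lower. Dhcr7, the last enzyme before cholesterol, differed most, at 7.21 ± 0.316 CPM in experiment 1 and 35.6 ± 2.33 CPM in experiment 2 (SD, n = 3 libraries each; log2 fold change 2.30, SE 0.23, edgeR adjusted p 7.95e-07). Lss followed at 27.4 ± 2.66 and 89.9 ± 2.43 CPM (log2 fold change 1.71, SE 0.10), and Mvd at 27.8 ± 2.44 and 90.4 ± 3.18 CPM (log2 fold change 1.70, SE 0.11). The regulators Srebf1 (1.26), Srebf2 (0.87), Insig1 (0.75) and Nr1h2 (1.39, all log2 fold changes) were also higher in experiment 2. On the other side, Sc5d, a sterol desaturase, stood at 199 ± 10.2 CPM in experiment 1 and 99.5 ± 6.72 CPM in experiment 2 (log2 fold change -0.996, SE 0.11), and Stard4 at 159 ± 13.3 and 90.04 ± 3.37 CPM (log2 fold change -0.82, SE 0.10). None of the 3 LXR targets was called between the experiments in either arm, and Hmgcs1 was not called either (log2 fold change 0.27 untreated, adjusted p 0.0628). The lower calls of Msmo1, Insig2, Pmvk, Idi1 and Ebp in untreated cells had log2 fold changes between -0.46 and -0.26 and all 5 were lost without the untreated library of mouse 1 of experiment 2 (adjusted p 0.066 to 0.329) or of mouse 2 (adjusted p 0.0587 to 0.198). Over all 12 fits that left out 1 library, the call held in 10 for Msmo1, 7 for Pmvk, 7 for Ebp, 6 for Insig2 and 4 for Idi1. After cyclic loess normalization Msmo1, Pmvk and Ebp were above 0. In DCA cells Ebp and Insig2 were lost without the DCA library of mouse 2 of experiment 1 (adjusted p 0.0983 and 0.093). Insig2 was also lost there without the DCA library of mouse 3 of experiment 1 (adjusted p 0.0528). The experiment 1 libraries that these values rest on detected fewer genes than those of experiment 2, as given above, and the part of that in these values was not tested.

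**Figure D5:**
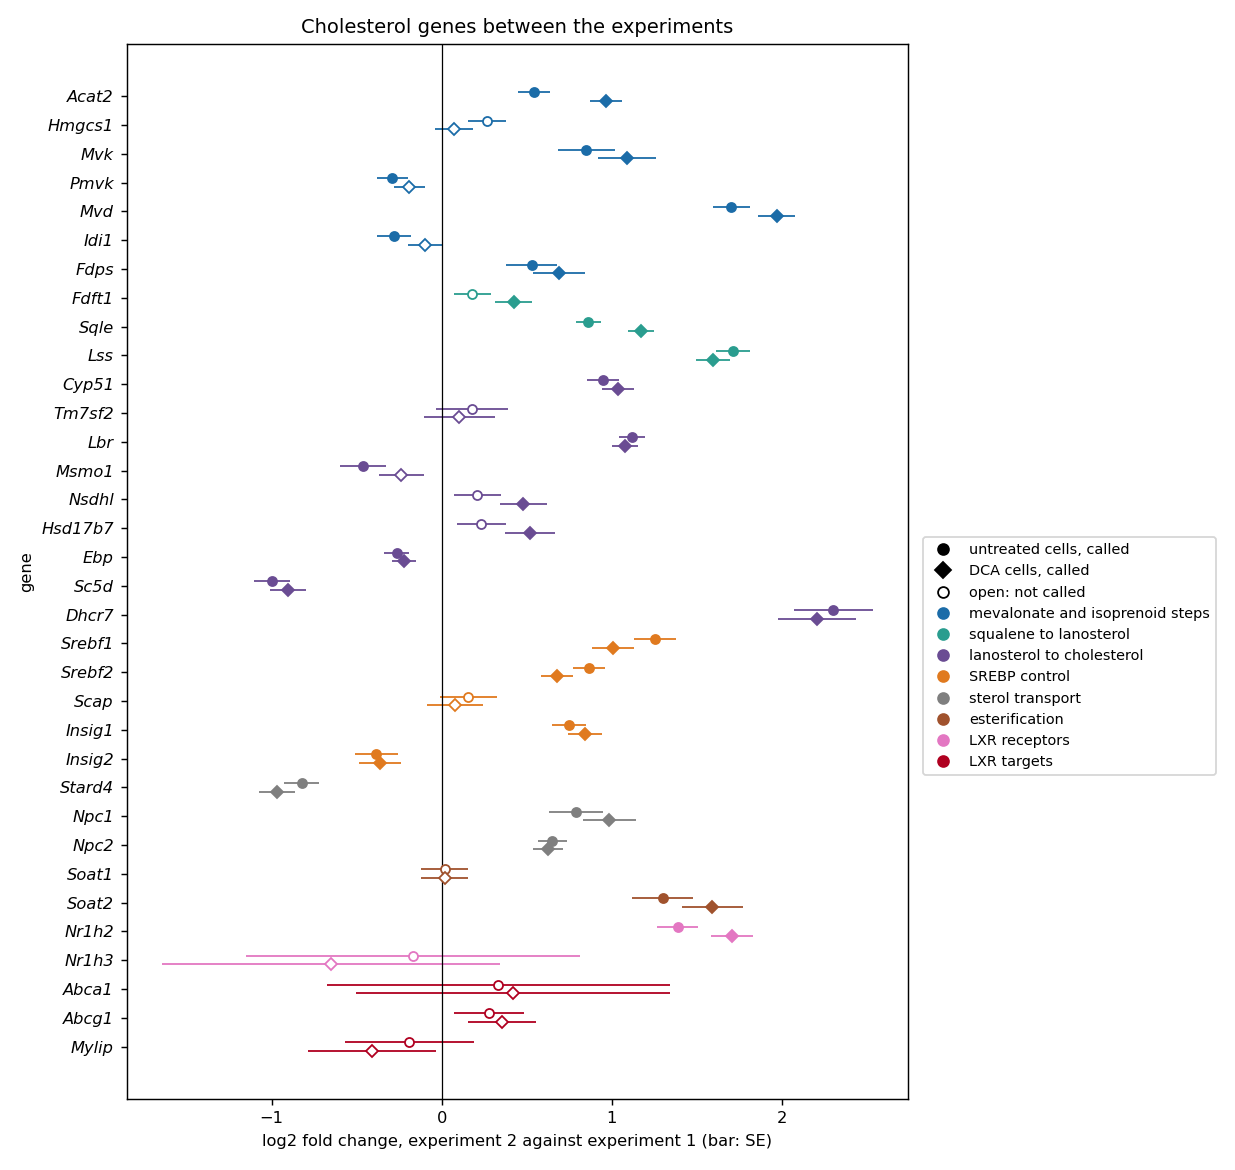
Log2 fold change of each member between the experiments, experiment 2 against experiment 1, in untreated and in DCA cells (bar: SE). Dhcr7, Mvd, Lss and Nr1h2 lie far to the right in both arms and Sc5d and Stard4 to the left.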

How the data were processed

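Raw read counts per gene were deposited for 12 libraries, without normalization by the authors. The submitters' processing notes name STAR 2.7.10a, the build GRCm39, fastp 0.23.2 and edgeR 3.36.0. The counter and its strand setting were not given in the sources used here. The authors also deposited their own comparison, which holds log2 fold changes and log2 CPM, p-values, false discovery rates and a gene length per the file headers. Unmapped value columns numbered 0.

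From these counts, genes were filtered with filterByExpr (4 groups), scaled with TMM and tested by the quasi-likelihood method of edgeR 4.0.16 (R 4.3.3). The 15688 p-values were adjusted by Benjamini-Hochberg at a threshold of 0.05. The DCA effect over both experiments came from a model with experiment and treatment, and all other contrasts from a model of the 4 group means. Each standard error was obtained from the log2 fold change and its F statistic, and the script was tested on simulated data. Means over members used log2 CPM (prior count 2). The 34 members and the other gene lists were chosen with earlier results of these data known. Named with values in every library were the called members, the LXR receptors and targets, the SREBP control genes and Hmgcs1. Acat2, also shown so, was chosen after its values were seen. Some called genes of the other lists count in their list's totals and are not reported here by name.

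Replicates differed by more than sampling noise (chi-square per degree of freedom 10.8 to 29.8). No molecular identifiers are recorded in the labels, so limits for genes at 0 (3 counts, 0.0755 to 0.117 CPM) cover counting error only. Each mouse gave both arms: deviations from the group means correlated at 0.0443 to 0.0834 within mice and -0.0689 to -0.00438 between mice. Deviations in a group of 3 libraries sum to 0, so positive values within mice bring negative ones between mice. The latter are not separate evidence of pairing, and all these correlations were small. Alternatives were RLE size factors, cyclic loess normalization with limma 3.58.1, limma-voom, DESeq2 1.42.0, no filter, a filter at 5 CPM in 3 libraries, a term per mouse, only the 2 groups compared, and each library left out in turn. Overlapping genes were read from a GRCm38 annotation, which gave 12 members with an overlapping gene, 5 of them over at least 10% of their exon bases.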

Additional observations from a re-analysis of the deposited data

How the results depend on the processing

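Over both experiments, 9 members were called, and 7 to 10 were called with each library left out in turn. The calls of 7 members (Idi1, Fdps, Sqle, Hsd17b7, Nr1h2, Tm7sf2 and Abcg1) held in all of these fits and in each of the other settings, and Cyp51 and Lbr did not. In experiment 1, 7 members were called, 5 to 12 with a library left out (12 without the DCA library of mouse 2) and 2 when only its 2 groups were fitted. In experiment 2, 2 were called, 0 to 2 with a library left out, 5 in DESeq2 and 5 when only its 2 groups were fitted. Calls over all genes are not given beside these counts for a single experiment, so nothing is read from their changes. For the difference of the effects the count was 0, and 0 to 1 with a library left out. Between experiments, 23 members were called in each arm, 19 to 24 in untreated and 21 to 24 in DCA cells with a library left out. The change of synthesis minus LXR targets was -1.34, -1.49 to -1.15 with a library left out, -0.67 with medians and -1.75 with Abca1 and Abcg1 alone; its cause was not tested. With a term per mouse (replicate block), 3 members were called higher and 6 lower over both experiments, 1 and 6 in experiment 1, 1 and 1 in experiment 2 and 0 for the difference, beside 2094 of all genes over both experiments in place of 2638. No paired analysis was possible for experiment 2 against experiment 1 because no mouse was in both.

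Of the 34 members, 8 changed sign in at least 1 setting over both experiments, 11 in experiment 1, 12 in experiment 2 and 17 for the difference, 0 of them called there. Between experiments 9 changed sign in untreated cells (3 of them called) and 10 in DCA cells (1 of them called). After cyclic loess normalization the synthesis enzymes below 0 went from 18 to 12 in experiment 1 and from 16 to 12 in experiment 2. Acat2 over both experiments was at -0.00204 with RLE size factors and -0.00200 with DESeq2. After cyclic loess normalization, Pmvk (0.0308), Msmo1 (0.0936), Sc5d (0.0387) and Stard4 (0.0804) were above 0, Stard4 was at 0.0209 with the filter at 5 CPM, and Soat2 was at 0.00818 in limma-voom. With a library left out, the log2 fold changes went from -0.0231 to 0.0804 for Acat2, -0.118 to 0.0202 for Msmo1, -0.0837 to 0.0213 for Stard4, -0.0142 to 0.112 for Soat1, -0.0951 to 0.0439 for Soat2 and -0.856 to 0.0461 for Nr1h3. For experiment 2 against experiment 1, cyclic loess normalization gave 0.0489 for Pmvk, 0.252 for Msmo1 and 0.141 for Ebp in untreated cells and 0.0826 for Ebp in DCA cells.

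Depth limited Abca1 and Nr1h3, whose libraries held 0 to 53 and 0 to 32 counts. TMM factors of the untreated and DCA libraries did not overlap in either experiment, and cyclic loess normalization moved the synthesis median from -0.18 to -0.06. Strain, batch and experiment cannot be told apart, and the purity of the CD8 sort was read from marker genes alone.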
